A study of Mus musculus with 12 samples.

Results

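The replication-dependent histone genes were taken as every row of the deposited gene table whose symbol begins with Hist1h, Hist2h, Hist3h or Hist4h, which gave 68 of 23358 rows. They comprise 6 genes of linker histone H1, 18 of H2A, 19 of H2B, 12 of H3 and 13 of H4, and 54 of them lie on chromosome 13, 10 on chromosome 3, 3 on chromosome 11 and 1 on chromosome 6. At least 1 read was counted in 62 of the 68, and 22 passed the filter on low counts and were tested. The rows that were at 0 in every library were Hist2h2aa2, Hist1h2ao, Hist1h2ap, Hist1h2ba, Hist1h2bq and Hist1h2br.

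The RNA came from bone marrow-derived mesenchymal stem cells (BMSCs) of the mouse, which are stromal cells that grow attached and can form bone, fat and cartilage. All cells were grown in medium with 10% fetal bovine serum, seeded at 10000 cells per square centimetre and left for 1 day. They were then kept untreated (Ctrl), or treated for 24 h with CK666 (CK), with cytochalasin D (CytoD) or with both (CytoD+CK), with 3 libraries in each of the 4 groups. Cytochalasin D caps the growing ends of actin filaments, and CK666 inhibits the Arp2/3 complex, which starts branches on actin filaments. The sources used here do not give the doses, the strain, sex or age of the mice, or any selection of RNA before sequencing. The labels do not say whether the replicates are separate cultures or animals, so a p value sets a difference against the variation of these libraries alone, which may be technical.

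Replication-dependent histone genes supply the histones that package new DNA, and most of their RNA is made in S phase. Their typical mRNA has no poly(A) tail and ends just after a short stem-loop, which is bound by the stem-loop binding protein Slbp and cut with the help of the U7 small nuclear RNA. Some of these genes are also known to yield longer, polyadenylated RNA, above all in cells that have left the cell cycle.

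The sum of gene counts was between 48930210 and 69269716 per library, and levels are given as CPM, the usual scaling of counts to a common library total, with TMM factors. Where no read was counted, as many as 3 counts remain possible if each count is a separate event, which is 0.0423 to 0.0634 CPM for counting error alone. Every count was even, and if both reads of a pair were counted this bound is too low. CK replicate 3 stood apart from its group, with a median absolute log2 difference of 0.275 from the group mean, against 0.0766 to 0.178 in the other 11 libraries. Across genes, which are not independent, its differences had a Pearson r of -0.458 with log10 gene length, short genes being higher, and most histone rows are short. Markers of marrow stromal cells, with counts for all 11, summed to 14196 to 17430 CPM in Ctrl, 8663 to 9952 in CK, 22111 to 24704 in CytoD and 8150 to 8501 in CytoD+CK. This sum was thus above Ctrl in CytoD and below it in CK and CytoD+CK. Of the 10 markers tested with edgeR, 4 were called higher and 3 lower in CytoD (adjusted p under 0.05). In CK, and also in CytoD+CK, 1 was called higher and 5 lower. Over all tested genes the shares were 19.1% higher and 18.9% lower in CytoD, 22.5% and 18.7% in CK, and 24.4% and 21.6% in CytoD+CK. Markers of macrophages, with counts for 4 of 7 and Ptprc, Tyrobp and Emr1 at 0, summed to 5.29 to 6.19 CPM in Ctrl, 4.53 to 5.98 in CK, 7.98 to 9.58 in CytoD and 5.84 to 6.77 in CytoD+CK. Those of testis germ cells, with counts for 6 of 7 and Tnp1 at 0, summed to 1.5 to 2.07 CPM in Ctrl, 2.35 to 2.9 in CK, 2.18 to 2.92 in CytoD and 3.36 to 4.02 in CytoD+CK, nearly all of it from Sycp3. The macrophage sum in CytoD and the germ cell sum in all 3 treated groups thus lay above Ctrl without overlap. Of the 3 macrophage markers tested, 1 was called higher and 0 lower in CytoD, with a median log2 fold change of -0.04. Markers of endothelial cells (4 of 5 with counts) summed to 0.141 to 0.803 CPM and those of erythroid and lymphoid cells (4 of 7 with counts) to 0.0822 to 0.366 CPM over all libraries. The part of these markers in the results below was not tested.

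The stem-loop was searched on the transcribed strand of the GENCODE M21 transcript models (build GRCm38) as 16 bases with GG at 1 and 2, CT at 5 and 6, TT at 8 and 9, AG at 11 and 12 and CC at 15 and 16, and a match was found in 44 of the 68 genes, in 6 spellings. The spelling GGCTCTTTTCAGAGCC was in 26 genes, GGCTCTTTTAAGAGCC in 6 and GGCTCTTTTTAGAGCC in 1. All 11 H4 genes with a match had another stem, spelled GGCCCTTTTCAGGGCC in 7, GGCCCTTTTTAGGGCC in 2 and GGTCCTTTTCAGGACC in 2. Many models without a match are short, such as those of Hist1h2ak at 393 bases and Hist1h4k at 312. Such a model may end before the stem-loop, so the lack of a match does not show that a gene has none. The windows of 30 bases below show the stem-loop in capitals for members of H1, H2A, H2B, H3 and H4 that carry the results.
Hist1h1c, chr13:23739512-23739527, plus strand: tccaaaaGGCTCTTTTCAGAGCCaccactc
Hist3h2a, chr11:58955172-58955187, plus strand: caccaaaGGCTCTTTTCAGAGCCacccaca
Hist1h2ac, chr13:23683477-23683492, minus strand: acccaaaGGCTCTTTTCAGAGCCcccactt
Hist1h2bg, chr13:23571843-23571858, plus strand: acccaaaGGCTCTTTTCAGAGCCacccata
Hist2h3c1, chr3:96247327-96247342, plus strand: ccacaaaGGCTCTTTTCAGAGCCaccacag
Hist1h4i, chr13:22040966-22040981, minus strand: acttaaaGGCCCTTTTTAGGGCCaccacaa
The coordinates are those of the capitals. Past the stem-loop, the models of Hist1h1c, Hist3h2a and Hist2h3c1 run on to an AATAAA, the letters of the common poly(A) signal, within their last 40 bases, as does the model of Hist2h2be, in which no stem-loop was matched. These windows show AATAAA in capitals.
Hist1h1c, chr13:23740330-23740359: gtgtatgcttctAATAAAaagcgtttagtt
Hist3h2a, chr11:58956785-58956814: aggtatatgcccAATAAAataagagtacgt
Hist2h3c1, chr3:96248475-96248504: ttttttaatcccAATAAAaatttaacacac
Hist2h2be, chr3:96223705-96223734: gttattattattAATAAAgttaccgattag

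Most counted reads lay in rows that run past the stem-loop, a share carried by Hist1h1c. This grouping was chosen after the values had been seen and is a description. Counts per row do not show on which side of the stem-loop a read lay. The span of 16 rows ran more than 60 bases past the stem-loop; 11 of them passed the count filter, and they held 82.2% of the 112234 counts of the 68 rows. Of the 92284 counts of this set, 69892 were of Hist1h1c, and without that gene the set held 52.9% of the 42342 counts left. The span of 22 rows ended earlier, and these held 1.09% of the counts, with 6 passing. A further 22 rows had no match in their model and held 15.7%, almost all of it in Hist1h2bc. The last 8 rows held 1.03%. They spanned more than 1 near-identical copy, except Hist1h4m, which lay within such a row. The median level per length was 0.654 CPM per kilobase in the first of these sets, 0.143 in the second and 0.082 in the third. AATAAA stood in the last 40 bases of the model of 7 of the 16 rows that ran past the stem-loop and of 2 of the 22 that did not. A model can end beyond its row: the AATAAA window of Hist3h2a starts at 58956785, and its row ends at 58956674.

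**Figure D1:**
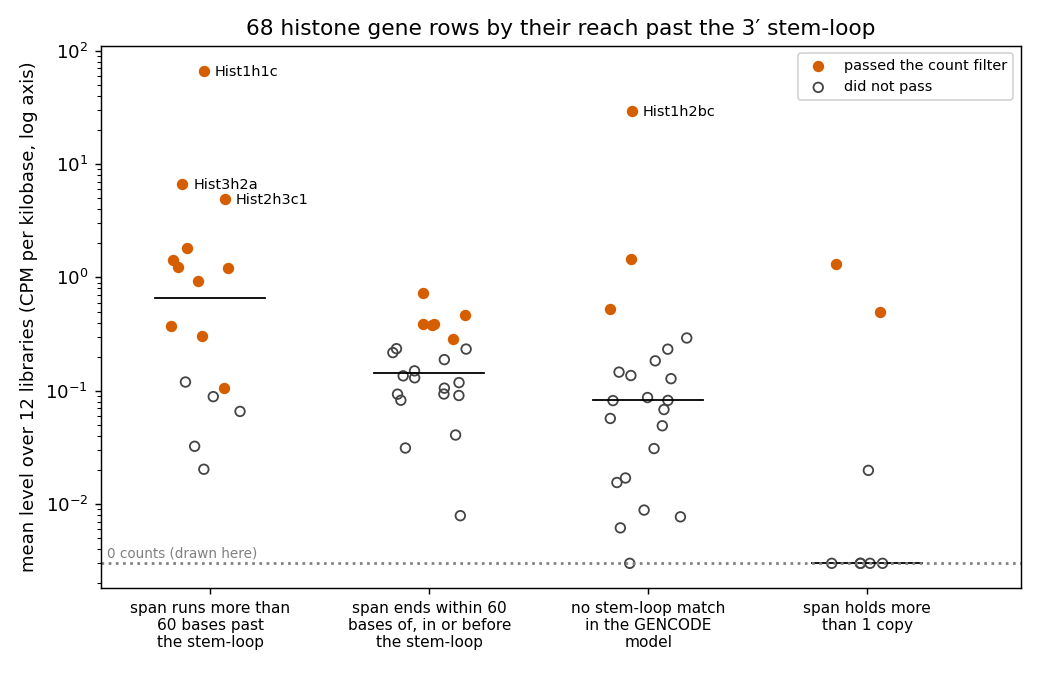
Mean level over 12 libraries (CPM per kilobase of the row, log axis) of the 68 histone rows, grouped by where the row's genomic span ends relative to the stem-loop in the GENCODE model; filled points passed the count filter, horizontal bars are medians and rows at 0 are drawn on the dotted line. Hist1h1c at 66.9, Hist3h2a at 6.74 and Hist2h3c1 at 4.94 CPM per kilobase lie among rows that run past the stem-loop, and Hist1h2bc at 29.4 has no match in its model. Hist1h4m is drawn with the rows that hold more than 1 copy because it lies within such a row.

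A few genes made up nearly all of the histone signal. Hist1h1c, which encodes linker histone H1.2, held 62.3% of the members' counts, and together with the H2B gene Hist1h2bc, the H2A gene Hist3h2a and the H3 gene Hist2h3c1 it held 88.4%. Per kilobase of the row, Hist1h1c stood at 66.9 ± 15.8 CPM (SD over 12 libraries of 4 groups) and above 91.7% of the 13534 tested genes, while Hist1h2bc stood above 80.9%, Hist3h2a above 46.6% and Hist2h3c1 above 40.3%. By family, H1 took 64.6% of the members' counts, H2B 16.2%, H2A 11.2%, H3 6.77% and H4 1.27%. The highest H4 gene per length, Hist1h4i, was at 1.43 CPM per kilobase. The 68 rows together took 0.0115% to 0.0217% of a library's counts.

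The other 46 rows had between 0 and 78 counts over all 12 libraries, with a median of 22, and were not tested. Among them are the testis-type genes Hist1h1t, with 20 counts in 7 libraries, Hist1h2aa, with 2 counts in 1 library, and Hist1h2ba, with 0. They also include most genes of the large chromosome 13 clusters, such as Hist1h3b with 60 counts and Hist1h4c with 38. Summed over the 46 rows, the level was 2.02 ± 0.37 CPM in Ctrl, 1.43 ± 0.287 in CK, 1.71 ± 0.428 in CytoD and 1.71 ± 0.333 in CytoD+CK (SD, n = 3), and the ranges of the 3 treated groups each overlapped that of Ctrl.

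Summed over all 68 rows, the level was 122, 136 and 141 CPM in the Ctrl libraries, 131, 133 and 163 in CK, 190, 186 and 191 in CytoD, and 215, 204 and 201 in CytoD+CK. The CytoD and CytoD+CK libraries lay above every Ctrl and CK library, and the CytoD+CK libraries above every CytoD library. In bulk RNA, fewer cells that express a gene and less RNA per cell cannot be told apart. Without Hist1h1c the sum was 53.9 ± 0.764 CPM in Ctrl, 58 ± 9.65 in CK, 64 ± 1.49 in CytoD and 77.1 ± 2.24 in CytoD+CK. The sum of H1 was 1.57 times the Ctrl mean in CytoD and 1.62 times in CytoD+CK. For H2A these ratios were 1.3 and 1.52, for H2B 1.15 and 1.49, for H3 1.11 and 1.28, and for H4 1.12 and 1.43. In CK the ratios lay between 0.955 for H4 and 1.19 for H2A, and without CK replicate 3 the log2 ratio was 0.09 for H2A, -0.06 for H2B and -0.23 for H3.

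Motifs of histone promoters were searched on both strands in the 250 bases before the start site, in RefSeq sequences of build GRCm38.p6 that were found for 61 of the 68 members. CCAAT, bound by the factor NF-Y, was in 50 of 61 (34.5% of 27025 promoters of all genes), in all 6 of H1, all 17 of H2A and all 16 of H2B, but in 3 of 12 of H4. TATAAA was in 29 of 61 (13% of all promoters). The octamer ATTTGCAT, bound by Oct factors, was in 13 of 61 (1.61% of all), 7 of H2A and 6 of H2B. AAACACA, the box found in H1 promoters, was in 9 of 61 (6.22% of all), 5 of them H1 genes. None of these motifs contains another. Neighbours read in opposite directions can share a window, as Hist1h2ae and Hist1h2bg do, and the same site then counts for both. The members counted are thus not all separate promoters. The regions below belong to the 4 members or pairs whose values are described first, with the motifs in capitals on either strand (CCAAT reads ATTGG and the octamer ATGCAAAT on the other).
Upstream of Hist1h1c, chr13:23738557-23738806, plus strand: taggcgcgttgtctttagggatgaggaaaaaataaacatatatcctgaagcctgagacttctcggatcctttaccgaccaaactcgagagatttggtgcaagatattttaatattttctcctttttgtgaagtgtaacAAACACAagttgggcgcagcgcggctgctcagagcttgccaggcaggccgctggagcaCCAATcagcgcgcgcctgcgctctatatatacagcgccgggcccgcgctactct
Upstream of Hist3h2a, chr11:58954435-58954684, plus strand: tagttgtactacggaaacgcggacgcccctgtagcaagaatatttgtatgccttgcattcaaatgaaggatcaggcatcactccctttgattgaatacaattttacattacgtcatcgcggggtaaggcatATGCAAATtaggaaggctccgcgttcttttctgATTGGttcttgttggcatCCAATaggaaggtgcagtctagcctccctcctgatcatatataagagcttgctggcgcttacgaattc
Between Hist1h2ac and Hist1h2bc, chr13:23683960-23684198, minus strand: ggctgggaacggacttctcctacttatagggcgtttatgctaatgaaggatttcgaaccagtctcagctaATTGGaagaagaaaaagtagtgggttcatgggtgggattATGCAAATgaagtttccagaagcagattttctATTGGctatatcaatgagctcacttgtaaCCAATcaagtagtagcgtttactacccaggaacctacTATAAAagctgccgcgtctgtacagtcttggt
Between Hist1h2bg and Hist1h2ae, chr13:23571221-23571399, plus strand: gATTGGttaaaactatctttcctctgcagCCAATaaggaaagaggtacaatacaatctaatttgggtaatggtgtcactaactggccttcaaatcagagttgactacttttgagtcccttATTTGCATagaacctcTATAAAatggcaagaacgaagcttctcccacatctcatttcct
A match is a run of letters and not a measured site.

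The first comparison set CytoD, which disrupts actin filaments, against Ctrl. One linker histone gene, 2 H2A genes and 3 H2B genes rose, and no member was called lower. Adjusted p values throughout are those of the quasi-likelihood test in edgeR, adjusted by Benjamini and Hochberg across the 13534 genes tested, and a gene was called at an adjusted p under 0.05. Of the 22 members tested, 6 were called higher, where 19.1% of all tested genes were called higher and 18.9% lower (37.9% in all). The count of 0 lower was also 0 at an unadjusted p under 0.05 and with DESeq2. The median log2 fold change was 0.22 over the 22 members and 0.02 over all tested genes. The CytoD and Ctrl libraries did not overlap for 9 of the 22, against 61.6% of all tested genes.

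Among the H1 genes, Hist1h1c (chromosome 13, 23738807 to 23740367) was at 68.4, 81.7 and 86.2 CPM in Ctrl and at 127, 122 and 125 CPM in CytoD. All CytoD libraries lay above all Ctrl libraries, by a log2 fold change of 0.66 (SE 0.09, adjusted p = 0.000133). Of the 50-base windows of its GENCODE model, 91.5% occur in no transcript of another locus. All shares of unique windows given here are of the models, which can differ in length from the counted rows. Hist1h1e, the gene of H1.4, was at 2, 1.99 and 2.63 CPM in Ctrl and at 3.12, 2.15 and 3.83 in CytoD, and these ranges overlapped (log2 0.46, SE 0.24, adjusted p = 0.157). Hist1h1d, the gene of H1.3, was at 1.22, 1.06 and 1.43 CPM in Ctrl and 0.863, 1.11 and 1.12 in CytoD, also with overlap. Part of the row of Hist1h1e lies in an exon of Hist1h2be, so reads there cannot be assigned with certainty.

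In H2A, Hist1h2ac was at 2.24, 1.95 and 2.33 CPM in Ctrl and at 4.77, 3.86 and 4.08 CPM in CytoD, without overlap (log2 0.96, SE 0.16, adjusted p = 0.000432). Hist3h2a, an H2A gene of chromosome 11 (58954685 to 58956674), was at 9.65, 10.3 and 11 CPM in Ctrl and at 13.7, 12.4 and 13 in CytoD. Its libraries did not overlap either, and the log2 change was 0.34 (SE 0.11, adjusted p = 0.0251). That call was lost without Ctrl replicate 1 or 2 or CytoD replicate 1 or 3 (adjusted p = 0.125, 0.0701, 0.0834 and 0.0648). Hist2h2aa1, whose row spans several copies and of whose windows 3.72% are unique, had a log2 change of -0.01 (SE 0.22).

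In H2B, Hist1h2bg rose the most. It had 12, 18 and 8 counts in Ctrl and 32, 30 and 40 in CytoD, which is 0.244, 0.381 and 0.15 CPM against 0.658, 0.503 and 0.722 CPM (log2 1.28, SE 0.33, adjusted p = 0.00808). The groups did not overlap, and 50.3% of its windows are unique, so reads of near-identical H2B genes may be shared. Hist2h2be, on chromosome 3, was at 3.26, 2.62 and 2.59 CPM in Ctrl and at 3.7, 4.56 and 4.66 in CytoD, without overlap (log2 0.61, SE 0.15, adjusted p = 0.00707); all of its windows are unique. The call of Hist1h2be (log2 0.66, adjusted p = 0.0445) was lost without any of Ctrl replicates 1 and 3 (adjusted p = 0.182 and 0.107) and CytoD replicates 1, 2 and 3 (adjusted p = 0.115, 0.102 and 0.0708), and in 9 of 14 other settings in all. Hist1h2bc, the highest H2B gene, was at 19, 18.4 and 17.8 CPM in Ctrl and 19.2, 20.5 and 19.9 in CytoD (log2 0.11, SE 0.12, adjusted p = 0.49).

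In H3, Hist2h3c1 was at 7.86, 8.33 and 7.59 CPM in Ctrl and 8.88, 9.97 and 9.32 in CytoD. The groups did not overlap, yet the test did not call it (log2 0.24, SE 0.12, adjusted p = 0.116). Of the 14 other settings checked, it was called only when these groups alone were fitted (adjusted p = 0.0372). The other H3 gene tested, Hist2h3c2, overlapped between the groups (log2 -0.17, SE 0.21). None of the 6 H4 genes tested was called. Hist1h4i was at 0.57, 0.507 and 0.676 CPM in Ctrl and at 0.37, 0.638 and 0.65 in CytoD, with overlap.

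**Figure D2:**
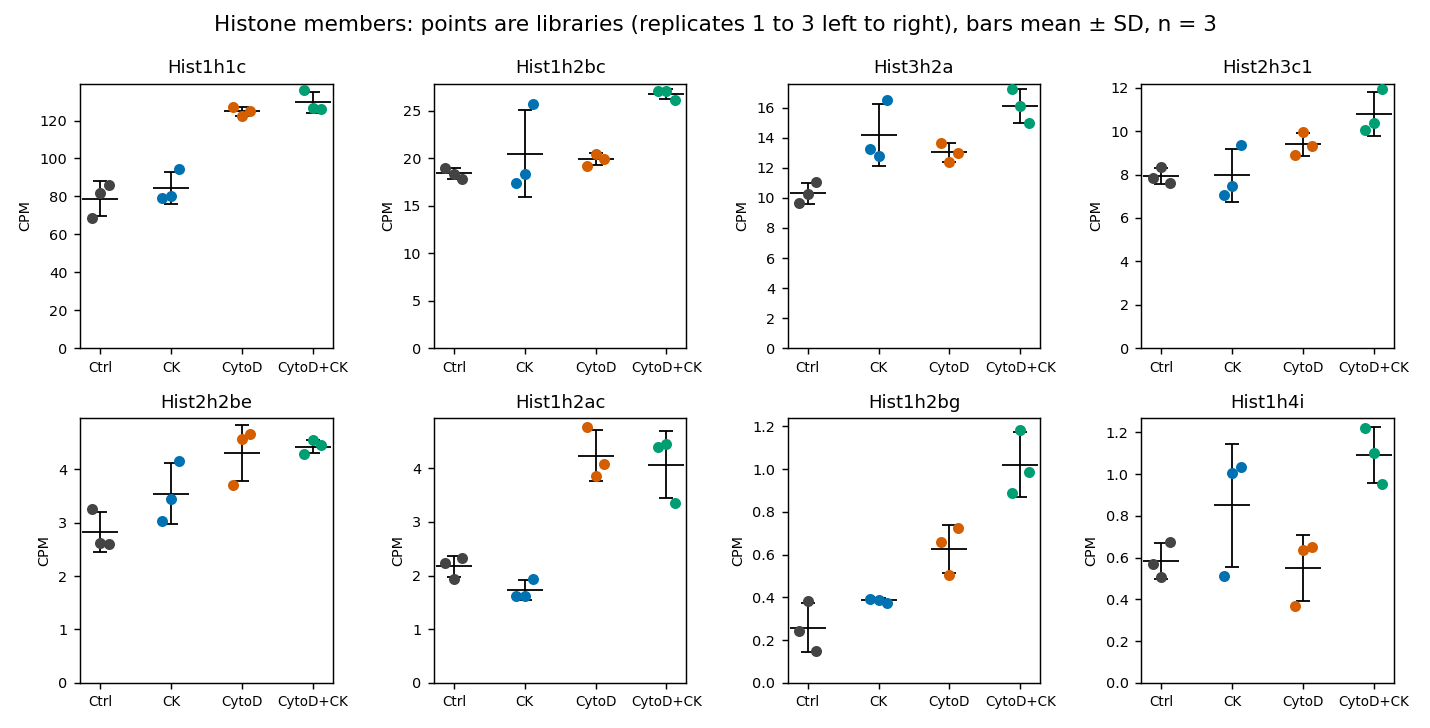
CPM of 8 members in each library (points, replicates 1 to 3 from left to right) of the groups Ctrl, CK, CytoD and CytoD+CK, with mean ± SD (n = 3); each panel has its own axis from 0. Hist1h1c and Hist1h2ac are high in CytoD and CytoD+CK, whereas Hist1h2bc lies at 26.2 to 27.1 CPM in CytoD+CK and at 25.7 CPM in CK replicate 3, above its other libraries.

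The next comparison asked what followed CK666 alone. Of the 22 members, 1 was called higher and 2 lower, where 22.5% of all tested genes were called higher and 18.7% lower (41.1% in all). The median log2 change was -0.15 over the 22 and 0.03 over all tested genes, and the groups did not overlap for 7 of 22, against 50.1% of tested genes. Hist3h2a was at 13.2, 12.8 and 16.6 CPM in CK, above every Ctrl library (log2 0.46, SE 0.11, adjusted p = 0.00405), and without CK replicate 3 the log2 change was 0.29 (adjusted p = 0.0178). The 2 members called lower rest on very few counts. Hist1h2bj, an H2B gene, had 2, 10 and 8 counts in Ctrl and 2, 0 and 0 in CK, where one CK library equals the lowest Ctrl library. With an adjusted p of 0.0375 it was called, but not when Ctrl replicate 2 or 3 or CK replicate 2 or 3 was left out (adjusted p = 0.127, 0.0838, 0.0913 and 0.0951). Hist1h4m, an H4 gene within a set of overlapping near-identical rows and with 10.2% of windows unique, had 14, 6 and 8 counts in Ctrl and 2, 4 and 2 in CK. Its adjusted p of 0.0251 passed, but not when Ctrl replicate 1 or CK replicate 1 or 3 was left out (adjusted p = 0.107, 0.0638 and 0.0748).

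The most abundant member did not pass the test in CK. Hist1h1c was at 79.2, 80 and 94.3 CPM in CK, which overlapped Ctrl (log2 0.10, and -0.03 without CK replicate 3 or without Ctrl replicate 1). Hist1h2ac was at 1.62, 1.62 and 1.94 CPM, just under the lowest Ctrl library at 1.95 (log2 -0.33, SE 0.17, adjusted p = 0.131). Hist1h2bc was at 17.4, 18.3 and 25.7 CPM and overlapped Ctrl, with only replicate 3 high. Without CK replicate 1, 3 members were called higher in place of 1.

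With both compounds against Ctrl, members of all 5 families rose. Of the 22, 10 were called higher, where 24.4% of all tested genes were called higher and 21.6% lower (46% in all), and 0 were called lower, as at an unadjusted p under 0.05 and with DESeq2. The median log2 change was 0.49 over the 22 and 0.04 over all tested genes, and the groups did not overlap for 11 of 22, against 63.4% of tested genes. The 6 members called higher with CytoD alone were among the 10. These comparisons share their Ctrl libraries.

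Hist1h1c was at 136, 127 and 126 CPM with both compounds, clear of Ctrl (log2 0.72, SE 0.09, adjusted p = 3.7e-05). Hist1h2ac was at 4.4, 4.46 and 3.35 CPM (log2 0.91, SE 0.16), and Hist3h2a at 17.2, 16.1 and 15 CPM (log2 0.64, SE 0.11). Hist1h2bg had 48, 84 and 56 counts against 12, 18 and 8 in Ctrl, the largest rise of a member in this comparison (log2 1.99, SE 0.32, adjusted p = 0.000204). In each of these 4 genes the CytoD+CK libraries lay above all Ctrl libraries.

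The members called with both compounds and not with CytoD alone were Hist1h2bc, Hist2h3c1, Hist1h4h and Hist1h4i. Hist1h2bc was at 27.1, 27.1 and 26.2 CPM, above every Ctrl library (log2 0.54, SE 0.12, adjusted p = 0.0022), and Hist2h3c1 at 10.1, 10.4 and 11.9 CPM (log2 0.44, SE 0.12, adjusted p = 0.00674). Hist1h4i was at 1.22, 1.1 and 0.953 CPM against 0.507 to 0.676 in Ctrl (log2 0.89, SE 0.30, adjusted p = 0.0289). Both H4 calls were unsteady. Hist1h4h (adjusted p = 0.0295) lost its call without any 1 of the 6 libraries (Ctrl replicates 1 to 3, adjusted p = 0.108, 0.0691 and 0.0699; CytoD+CK replicates 1 to 3, adjusted p = 0.0716, 0.0629 and 0.0552). Hist1h4i lost it without Ctrl replicate 1, 2 or 3 (adjusted p = 0.0889, 0.0971 and 0.0518) or CytoD+CK replicate 1 or 2 (adjusted p = 0.0777 and 0.0696), and with a correction for gene length (adjusted p = 0.0616). Hist1h2be (log2 0.86) was lost without Ctrl replicate 1 only (adjusted p = 0.0594).

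**Figure D3:**
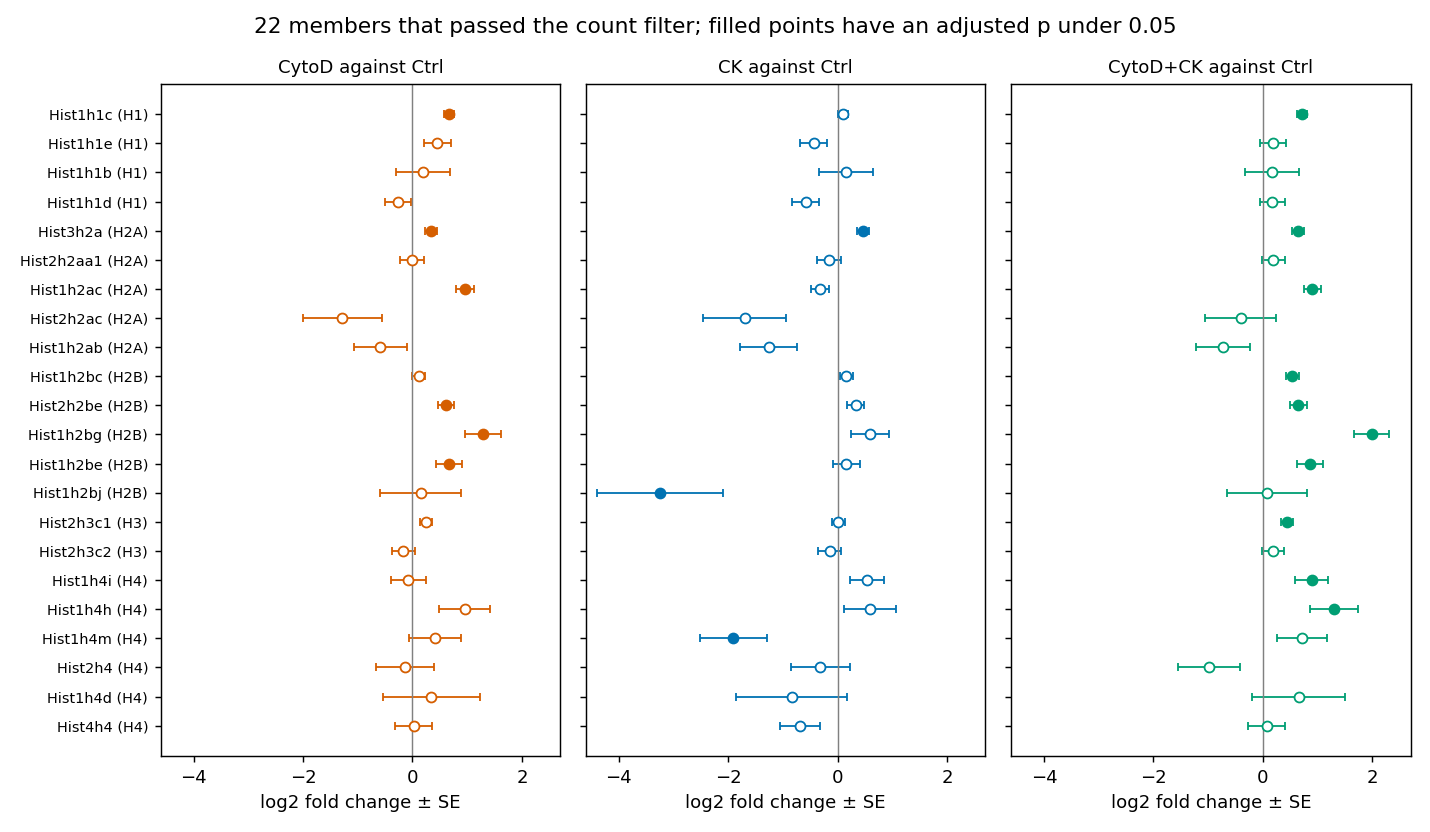
Log2 fold change ± SE against Ctrl of the 22 members that passed the count filter, one panel for each treatment, with filled points at an adjusted p under 0.05 (edgeR, Benjamini-Hochberg). Filled points number 6 for CytoD, 3 for CK and 10 for CytoD+CK, and the widest bars belong to members with few counts such as Hist1h2bj.

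Adding CK666 to CytoD raised 3 of the 22 members (15.8% of all tested genes were called higher and 14.3% lower, 30.1% in all) and lowered 0, as at an unadjusted p under 0.05 and with DESeq2. The groups did not overlap for 6 of 22, against 53% of tested genes. Hist1h2bc rose from 19.2 to 20.5 CPM in CytoD to the 26.2 to 27.1 CPM given above (log2 0.43, SE 0.12, adjusted p = 0.0148), a call narrowly lost without CytoD replicate 1 (adjusted p = 0.0531). Hist1h4i (log2 0.97, SE 0.30) was lost without CytoD replicate 1 or 2 or CytoD+CK replicate 1 or 2 (adjusted p = 0.105, 0.0533, 0.0788 and 0.0742) and with the length correction (adjusted p = 0.064). Hist3h2a (log2 0.31, adjusted p = 0.0435) lost its call in 10 of the 14 other settings checked. Among them were the fits without CytoD replicate 1, 2 or 3 or CytoD+CK replicate 1 or 2 (adjusted p = 0.0617, 0.143, 0.108, 0.13 and 0.102). Without CytoD replicate 1, 0 members were called, and 1 without CytoD replicate 2 or CytoD+CK replicate 1 or 2. Hist1h1c and Hist1h2ac overlapped between these groups (Hist1h2ac, log2 -0.05, SE 0.15).

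Adding CytoD to CK666 raised 5 of the 22 (4.43% of all tested genes were called higher and 7.17% lower, 11.6% in all) and lowered 0, again as at an unadjusted p under 0.05 and with DESeq2. The groups did not overlap for 11 of 22, against 27.6% of tested genes, and the median log2 change was 0.62 over the 22 and 0.00 over all tested genes. Hist1h2ac went from at most 1.94 CPM to at least 3.35 CPM (log2 1.23, SE 0.16, adjusted p = 0.000307), Hist1h1c from at most 94.3 to at least 126 CPM (log2 0.62, SE 0.09) and Hist1h2bg from 20, 20 and 24 counts to 48, 84 and 56 (log2 1.40, SE 0.30). Hist1h4m, with 2, 4 and 2 counts in CK and 20, 22 and 14 with both compounds, was called higher here and lower in CK against Ctrl, and both of these rest on the same CK libraries. Hist2h3c1 (log2 0.44, adjusted p = 0.0281) was lost without CK replicate 1 or 2 or CytoD+CK replicate 2 or 3 (adjusted p = 0.0821, 0.0555, 0.0671 and 0.133), and when only these groups were fitted (adjusted p = 0.153). Without CK replicate 3, 10 members were called higher instead of 5, and with the length correction or DESeq2 it was 8.

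The interaction is the effect of CytoD when CK666 was present, less its effect when CK666 was absent. It was called for 0 of the 22 by edgeR (6.63% of all tested genes were called higher and 7.67% lower), with 4 higher and 0 lower at an unadjusted p under 0.05 and 1 called with DESeq2. The closest was Hist1h1d, at 0.709, 0.812 and 0.939 CPM in CK and 1.66, 1.5 and 1.02 CPM with both compounds (log2 1.02, SE 0.33, adjusted p = 0.0585). It passed in the fit without CK replicate 3 (adjusted p = 0.0381), that without CytoD+CK replicate 3 (adjusted p = 0.0307), the one corrected for length (adjusted p = 0.0466) and by DESeq2 (adjusted p = 0.0301). Without CK replicate 3, 3 members were called for this term, and 1 without CytoD replicate 1 or CytoD+CK replicate 3.

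Hist1h2ac and Hist1h2bc are neighbours that are read in opposite directions from the 239 bases printed above, and the ratio of their levels differed between the groups of libraries. The ratio of Hist1h2ac to Hist1h2bc in CPM was 0.118 ± 0.0123 in Ctrl, 0.0857 ± 0.00917 in CK, 0.214 ± 0.0308 in CytoD and 0.152 ± 0.0205 in CytoD+CK (SD, n = 3). The CytoD libraries, from 0.188 to 0.248, lay above every other library, and the CK libraries below every other. These are descriptions, since the pair was picked from 4 neighbour pairs after its values were seen. An exact permutation test of the log2 ratio against Ctrl gave p = 0.1 in CK, 0.1 in CytoD and 0.2 in CytoD+CK. With so few libraries its smallest possible p is 0.1, so it cannot decide. Of the 50-base windows of the models of Hist1h2ac and Hist1h2bc, 88.4% and 69.4% are unique. The model of Hist1h2bc has 1156 bases and its counted row 728.

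**Figure D4:**
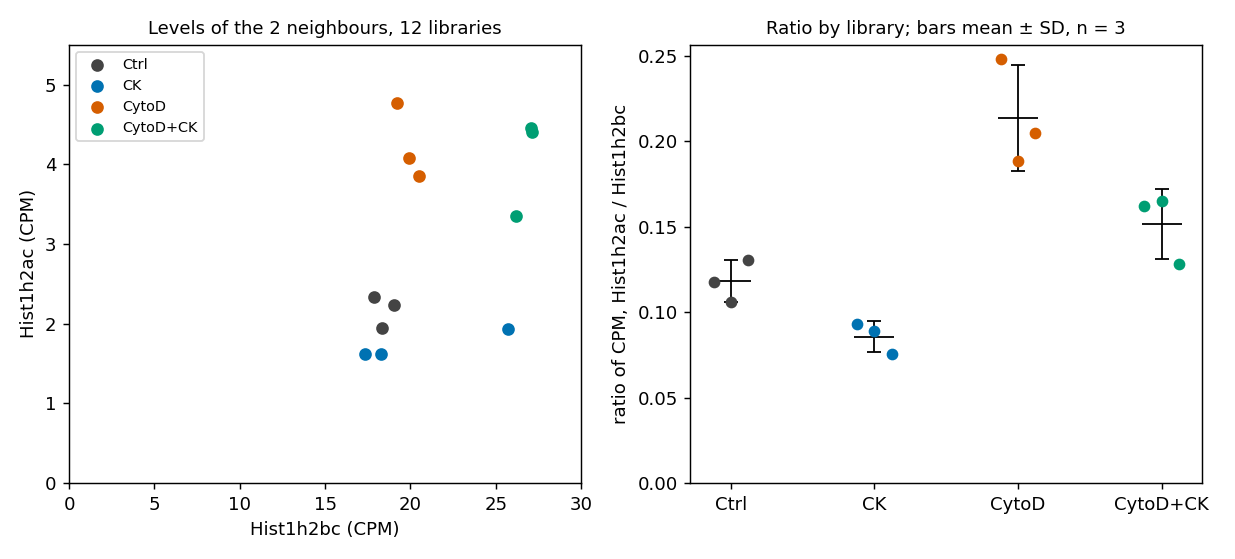
Left, Hist1h2ac against Hist1h2bc (CPM) in the 12 libraries; right, their ratio by library with mean ± SD (n = 3). The CytoD libraries have the highest ratios, 0.188 to 0.248, and in CytoD+CK both genes are above their Ctrl levels.

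Genes that accompany histone supply in S phase mostly fell in CytoD and CytoD+CK, where the members that were called rose. In CytoD, 16 of the 22 members tested were not called. With CK alone, 1 member was called higher and 2 lower, with a median log2 change of -0.15, and these S phase genes also mostly fell. Of 46 genes of S phase entry and DNA synthesis, 39 were called lower and 3 higher in CytoD. In CK these counts were 25 and 2, and in CytoD+CK 39 and 2. Over all tested genes 18.9% were called lower and 19.1% higher in CytoD. The shares were 18.7% and 22.5% in CK and 21.6% and 24.4% in CytoD+CK. Median log2 changes of the 46 genes in CytoD, CK and CytoD+CK were -0.97, -0.31 and -1.08, against 0.02, 0.03 and 0.04 over all tested genes. Pcna, the sliding clamp of DNA polymerases, fell from a mean of 134 CPM in Ctrl to 77.4 in CytoD, and Ccne2, cyclin E2, from 6.23 to 2.72 CPM. Cdk2, the kinase that cyclin E activates, had a log2 change of -0.46, and E2f1, a transcription factor of S phase genes, of -0.61, both called. Those called higher in CytoD were Cdkn1a (log2 0.69), Rb1 (0.38) and Cdkn1b (0.20), which encode brakes on S phase entry. Hist1h1c, Hist1h2ac and Hist1h2bg were higher in the same CytoD and CytoD+CK libraries in which these S phase genes were lower.

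Most genes of histone mRNA synthesis and decay did not pass the test, and most histone chaperones fell in CytoD. In CytoD 18.9% of all tested genes were called lower, so the counts for synthesis and decay below are close to that share. Of 30 genes of histone mRNA synthesis and 3′ processing, 7 were called lower and 0 higher in CytoD by edgeR (8 and 0 at an unadjusted p under 0.05, 7 and 0 with DESeq2). In CK 0 were lower and 4 higher (3 and 8 at an unadjusted p under 0.05, 3 and 3 with DESeq2), and in CytoD+CK 3 were lower and 2 higher. Over all tested genes 18.7% were called lower and 22.5% higher in CK, and 21.6% and 24.4% in CytoD+CK. Slbp fell from 35.8 to 27.6 CPM in CytoD (log2 -0.38, SE 0.07, adjusted p = 0.00128) and to 26.2 in CytoD+CK (log2 -0.45, SE 0.07), and Lsm11, a protein of the U7 particle, had a log2 change of -0.34 in CytoD. Npat, the coactivator of histone transcription, was at 32.7 CPM in Ctrl and 32.9 in CytoD (log2 0.01, SE 0.15), and Casp8ap2, which acts at histone locus bodies in the nucleus, at 17.6 and 14.8 CPM (log2 -0.24, SE 0.15, adjusted p = 0.223). Of 27 histone chaperones, 17 were called lower and 2 higher in CytoD, 5 and 3 in CK, and 15 and 3 in CytoD+CK. Asf1b fell by 1.41 on the log2 scale in CytoD, Chaf1a and Chaf1b, subunits of chromatin assembly factor 1, by 1.10 and 1.11, and Nasp, a carrier of H3, H4 and H1, by 0.65. Asf1a, Daxx and Nap1l4 were the chaperone genes called higher in CytoD+CK (log2 0.38, 0.39 and 0.46). Of 20 genes of histone mRNA decay, 4 were called lower and 0 higher in CytoD by edgeR (4 and 1 at an unadjusted p under 0.05, 4 and 0 with DESeq2). Eri1, the exonuclease that trims histone stem-loops, was among them at log2 -0.51.

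Histone variants that are made outside this gene set were split. Of 12 tested, 4 were called lower and 2 higher in CytoD, 3 and 3 in CK, and 4 and 2 in CytoD+CK. Over all tested genes 18.9% were called lower and 19.1% higher in CytoD, 18.7% and 22.5% in CK, and 21.6% and 24.4% in CytoD+CK. Whether the 12 variants differ from those shares was not tested. H2afx, the variant that marks DNA breaks when phosphorylated, fell from 30.5 CPM in Ctrl to 13.8 in CytoD and 12.5 in CytoD+CK (log2 -1.14 and -1.29), and H2afz from 146 to 98.5 and 99.7 CPM (log2 -0.57 and -0.55). H3f3a and H3f3b, both of which encode the replacement histone H3.3, were called higher in CytoD (log2 0.33 and 0.19). H1f0, the linker histone of resting cells, was at 209 CPM in Ctrl and 208 in CytoD (adjusted p = 0.969). Of 38 tested RNAs that lack a poly(A) tail, 0 were called in CytoD or CK by edgeR or DESeq2 (1 and 0 at an unadjusted p under 0.05), and 1, Snord47, was lower in CytoD+CK. The ribosomal RNA row Rn45s, which alone stood at 27680 CPM in Ctrl, had a log2 change of 0.35 (SE 0.27) in CytoD and -0.30 (SE 0.27) in CK.

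**Figure D5:**
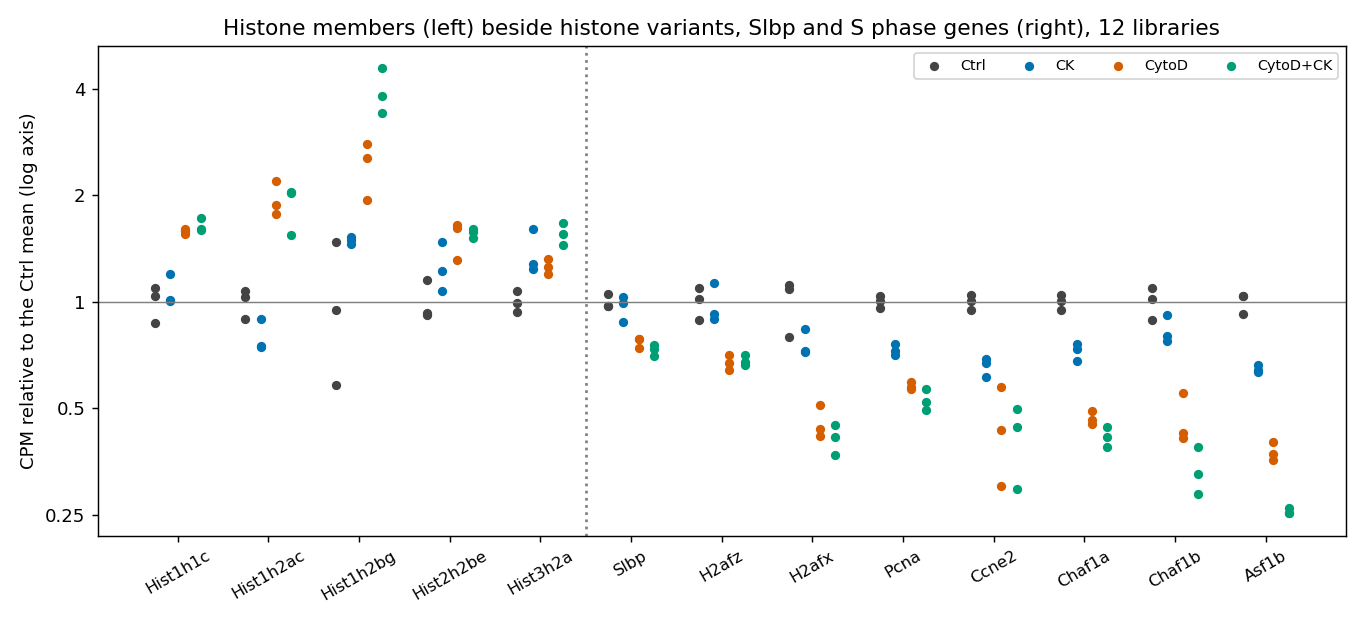
CPM of each library relative to the Ctrl mean of the same gene (log axis) for 5 histone members, left of the dotted line, and for Slbp, histone variants, S phase genes and chaperones, right of it; points are the 12 libraries. In CytoD and CytoD+CK the members drawn lie above 1 and the genes drawn on the right below 1. Both sides are picked genes. The members drawn were all called higher in CytoD, where 16 of the 22 tested were not called. Of the variants only H2afx and H2afz are drawn, and not H3f3a and H3f3b, which were called higher in CytoD.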

How the data were processed

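The read counts per gene were made by the authors, and the deposited table gives them for 12 libraries with RPKM values computed by the authors beside them; the RPKM values were not used. The submitters' processing notes name CASAVA 1.9, TopHat and HTSeq and the human build hg19, whereas symbols and coordinates are those of mouse GRCm38. Every count was even (0 odd values), as if both reads of a pair had been counted, so halved counts were tried as an alternative. No replicates were duplicates (chi-square per degree of freedom at least 11.8).

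Genes were filtered with edgeR 4.0.16 (filterByExpr, minimum count 10), scaled by TMM and fitted with 4 group means in the quasi-likelihood model, with 2-sided tests of 6 comparisons and no adjustment across comparisons. The SE is the log2 fold change over the square root of F. The script was tested on simulated data. Levels are CPM after TMM scaling, with no pseudocount, divided by the table's gene length where given per kilobase. Alternatives were RLE factors, no filter, DESeq2 1.42.0, a replicate block, only the groups compared, halved counts, a length correction, no Rn45s and each library left out. The members and lists were chosen with earlier results of these data known. Named genes were the 3 highest members per family, called members with the largest changes, members called in opposite directions, the testis-type genes and set genes of each list; not every one is printed.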

Additional observations from a re-analysis of the deposited data

How the results depend on the processing

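Of 27 calls of members, 16 were kept in every setting checked for that call, 11 were lost in at least 1 and 0 reversed. For a single call, fits without a library of a group outside its comparison were not checked. Among the 16, Hist1h4m in CytoD+CK against CK was checked in 13 other settings, and the rest in 14. The counts of members and of all genes called with CytoD or with both compounds against Ctrl stayed within 1.5 times the values given. Members called lower with CK numbered 2, and 1 with the replicate block, 0 with only the groups compared, 0 with halved counts, 4 with the length correction and 1 to 3 with 1 library left out. Members called higher with CK numbered 1, and 1 to 3 with 1 library left out. For both compounds against CytoD, members called higher went from 3 to between 0 and 3 with 1 library left out. Against CK they went from 5 to 8 with DESeq2, 8 with the length correction and 4 to 10 with 1 library left out. For the interaction, members called higher went from 0 to 1 with DESeq2, 1 with the replicate block, 3 with the length correction and 0 to 3 with 1 library left out. All genes called in CytoD+CK against CK numbered 1570, 459 with only the groups compared and 745 to 2563 with 1 library left out, and for the interaction 1935 and 1094 to 3396. Hist1h1c in CK against Ctrl, 0.10 on the log2 scale, turned to -0.0416 with the length correction, -0.0251 without Ctrl replicate 1 and -0.0281 without CK replicate 3, the range with 1 library left out being -0.0281 to 0.146. The cause of these changes was not tested. The main fit did not pair libraries by replicate number, and the replicate block was an alternative. Deviations of same-numbered libraries correlated at -0.0789 to 0.256, with 4 of 18 over 0.1. Such values cannot show whether a weak pairing exists. A length correction of the family sums was not run. Depth limits the 46 rows with at most 78 counts.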
